A study of Mus musculus with 2 samples.

Results

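Penk is the mouse gene for proenkephalin, and it was 1 of the 32287 features counted in 2 single-cell RNA libraries of leptomeninges, R1 and R2. The gene was found by its symbol, Penk, which stands beside the identifier ENSMUSG00000045573, and was selected on measured values: its level had already been seen to differ between fibroblast layers in these libraries. Its levels over cell classes are therefore a description, with no test. The membranes had been peeled by hand from the cerebral hemispheres of Pdgfra-H2BGFP mice aged 3 months, of both sexes, and loaded on a Chromium controller. All mice carried the reporter, which places a nuclear green fluorescent protein under the Pdgfra gene, and no untreated or wild-type group stands beside them. The GFP feature held 0 UMIs (unique molecular identifiers) in either library. The labels do not say how many animals were pooled or whether the libraries came from separate animals, so any spread between R1 and R2 may be technical.

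Proenkephalin is a secreted precursor that carries several copies of the short opioid peptides Met-enkephalin and Leu-enkephalin. Proprotein convertases cut it at pairs of basic residues, carboxypeptidases trim those residues off, and the free peptides act mainly on delta and mu opioid receptors before peptidases on cell surfaces destroy them. In the brain it is known from striatal and other neurons and from some glia. The leptomeninges hold pial, arachnoid and dural border fibroblasts in layers, beside vessels and border-associated macrophages.

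Penk lies on the minus strand at chr4:4133531-4138819 of mm10 (GRCm38, GENCODE M21). Its transcript Penk-201 has 1449 bases in 2 exons, with exon 1 at chr4:4138006-4138477 and exon 2 at chr4:4133531-4134507, and 268 coding codons. The coding sequence held 7 enkephalin units, of which 6 encode Met-enkephalin and 1 Leu-enkephalin. All 7 lay in exon 2, and all had codons for a pair of basic residues directly before them. The following 3 stretches of the GENCODE M21 transcript show what this RNA encodes: the capitals mark the 5 codons of the enkephalin, and the lower-case codons on each side are its flanks, which hold the convertase sites where they encode a basic pair.
Copy 1, Met-enkephalin, chr4:4134328-4134354: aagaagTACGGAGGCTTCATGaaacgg
Copy 6, Leu-enkephalin, chr4:4133935-4133961: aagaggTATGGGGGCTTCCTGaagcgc
Copy 7, Met-enkephalin, chr4:4133842-4133868: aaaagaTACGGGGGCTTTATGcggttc
Copies 1 and 6 have codons for basic pairs on both sides, as do 5 of the 7. Copy 7 is the last of the precursor and has a basic pair only before it. The 7 units were spelled in 6 different ways at the DNA level.

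An antisense gene, A830012C17Rik, starts inside the first exon of Penk on the plus strand (chr4:4138321-4188703). It held 9 UMIs in the kept cells of R1 and 13 in R2. Whether the counting used strand is not given in the sources used here, so reads over the shared stretch could have gone to either gene.

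R1 held 7276 barcodes with 14586462 UMIs and R2 6743 barcodes with 12359040. Of these, 2985 and 3035 were kept as cells, with medians of 1643 and 1249 UMIs. Of the kept cells, 1391 of R1 and 1556 of R2 were fibroblast-like. Doublet calling marked 0.1% and 0.0987% of barcodes, which is too few for the caller to have worked, and doublets may remain. The libraries shared 93 barcode sequences. Malat1, a nuclear RNA, was under 1% of the UMIs in most barcodes of some clusters. The share of cells at 1% or more is given below for some of the classes whose Penk levels rest on such barcodes.

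Penk was concentrated in dural border-like fibroblasts, the layer next to the dura, in both libraries. Their level was 541 CPM (Penk UMIs per 1000000 UMIs of the class) in R1 (exact 95% Poisson interval 504 to 581, from 776 UMIs in 574 cells) and 901 CPM in R2 (834 to 973, from 655 UMIs in 302 cells), or 721 ± 255 CPM (SD, n = 2). These cells were 19.2% of the kept cells of R1 and 9.95% of those of R2, and they held 74.2% and 53.6% of the kept Penk UMIs. The class carried its own markers: the summed level of 7 dural border genes, among them Slc47a1, Ccn3 and Mgp, was 12705 CPM in R1 and 15100 CPM in R2, against 1507 and 2902 CPM in inner arachnoid fibroblast-like cells. Arachnoid barrier-like cells had 3118 and 3777 CPM and endothelial-like cells 3535 and 4461 CPM. Mgp alone gave 5878 and 7898 CPM of the dural border-like sum, and Dkk2 of the same list gave 2.79 and 0 CPM. The Poisson and binomial intervals cover counting error only.

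The next level belonged to F2, a fibroblast-like cluster that was left without a name. It stood at 424 CPM in R1 (352 to 506, 123 UMIs in 340 cells) and 621 CPM in R2 (557 to 690, 343 UMIs in 625 cells). F2 had the dural border list as its best layer (11173 and 13329 CPM over the 7 genes), but its score for red cell genes was higher, and the red cell list summed to 13054 and 6369 CPM there against 2293 and 1887 CPM in dural border-like cells. Its cells were shallow, with medians of 738 and 754 UMIs, and only 5.59% and 4% of them had at least 1% Malat1 UMIs, against 97.9% and 94.7% of dural border-like cells. In R1 the intervals of F2 and dural border-like cells met, and in R2 they did not. F2 held 11.8% of the kept Penk UMIs of R1 and 28.1% of those of R2.

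Below these, the remaining fibroblast layers were low. Inner arachnoid fibroblast-like cells had 43.1 CPM in R1 (25.5 to 68.1) and 90.5 CPM in R2 (69.6 to 116). Only 32.7% and 20.2% of these cells had at least 1% Malat1 UMIs, unlike dural border-like cells. The level of pial and perivascular fibroblast-like cells was 40.6 CPM in R1 (24 to 64.1) and 67.4 CPM in R2 (40 to 107). Arachnoid barrier-like cells had 1 UMI in 42 cells of R1 and 8 UMIs in 35 cells of R2, 7 of them in a single cell, so that their 15.7 and 133 CPM cannot be placed in the order. Inner arachnoid, pial and barrier levels did not differ beyond their intervals within either library. The dural border-like level was 12.6 times the inner arachnoid level in R1 and 9.96 times in R2, and 13.3 and 13.4 times the pial level. CPM is a share of all UMIs, and the gene Ptgds alone took 239680 and 260202 CPM in inner arachnoid cells. In dural border-like cells it took 20656 and 30634 CPM. This lowers the CPM of every other gene in inner arachnoid cells, so the ratios to that layer are in part raised by it.

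**Figure D1:**
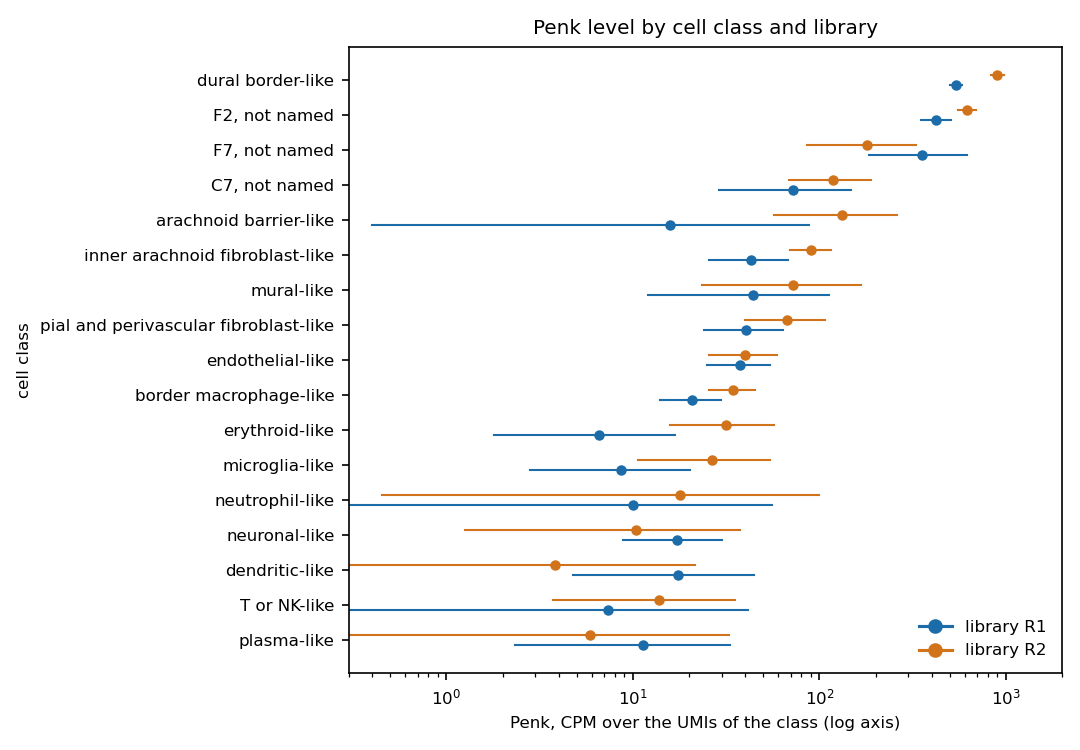
Penk CPM (log axis) in each of 17 classes and unnamed clusters, with 1 point per library and its exact 95% Poisson interval, cut off at the left edge where it reaches lower. Dural border-like cells and F2 lie at 424 to 901 CPM in both libraries, and named classes other than these and arachnoid barrier-like cells lie at or below 90.5 CPM.

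Outside the fibroblasts, Penk was low. All other kept cells together had 19.8 CPM in R1 and 32 CPM in R2. Border macrophage-like cells had 20.8 CPM (13.9 to 29.8) and 34.3 CPM (25.6 to 44.9). Neuronal-like cells had 17.1 CPM from 12 UMIs and 10.4 CPM from 2 UMIs, and only 7.29% and 3.9% of them had at least 1% Malat1 UMIs. Microglia-like cells had 8.66 and 26.4 CPM. Mural-like cells, with 4 and 5 UMIs, had 44 CPM (12 to 113) and 71.9 CPM (23.3 to 168), close to the pial and perivascular level. Endothelial-like cells stood at 37.5 CPM (24.9 to 54.2) and 40 CPM (25.6 to 59.5). Their clusters differed: C4 had 0 UMIs in 59 cells and 1 UMI in 60 cells, whereas C6 had 41.9 and 56.2 CPM, with up to 6 and 7 UMIs in 1 cell, and C15 had 78.5 and 54.9 CPM from 9 and 6 UMIs. Within the macrophage-like cells, those with under 1% Malat1 had 38.2 and 47.4 CPM and the rest 9.45 and 24.3 CPM. Whether free RNA, doublets or expression gave these UMIs was not tested.

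F7 and C7 were left without names. F7, in which the complement genes C1qa, C1qb and C1qc led, had 355 CPM from 12 UMIs and 179 CPM from 10 UMIs in 21 and 47 cells. Of the F7 cells, 33.3% and 10.6% had at least 1% Malat1 UMIs. C7, in which neural genes such as Meg3 and Gria2 led, had 72.1 CPM and 119 CPM from 7 and 17 UMIs.

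R2 was higher than R1 in 13 of the 17 classes and clusters. The libraries' intervals lay apart in dural border-like cells (R2 over R1, 1.67), F2 (1.46) and inner arachnoid fibroblast-like cells (2.1). In endothelial-like cells the ratio was 1.07. With 1 library on each side this difference has no replicate check.

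The share of cells with a Penk UMI was compared after drawing 1000 UMIs from each cell, which left out shallower cells (53 and 24 dural border-like cells and 261 and 466 of F2). At this depth 29.8% of dural border-like cells of R1 had a Penk UMI (155 of 521, exact 95% binomial interval 25.9% to 33.9%). In R2 the share was 43.5% (121 of 278, 37.6% to 49.6%). F2 had nearly the same shares, 27.8% (18.3% to 39.1%) and 40.3% (32.6% to 48.3%), with intervals that overlapped those of dural border-like cells in both libraries. Without drawing, the dural border-like shares were 42.7% and 57.6%.

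In border macrophage-like cells, taken as a background, the share was 1.59% (0.586% to 3.43%) and 3.37% (1.86% to 5.6%), at median depths of 1448 and 1213 UMIs against 2340.5 and 2144 in dural border-like cells. Endothelial-like cells, also meant as a background, had 4.78% (2.49% to 8.2%) and 3.14% (1.27% to 6.36%). Inner arachnoid fibroblast-like cells, in which Ptgds takes up many of the drawn UMIs, had 2.82% (0.773% to 7.06%) and 5.95% (3.44% to 9.48%). The pial and perivascular share was 4.38% in R1 (1.78% to 8.81%) and 2.33% in R2 (0.283% to 8.15%). The intervals of both layers overlapped those of macrophages in each library at this depth. The undrawn values of inner arachnoid cells of R2 did not: their share was 11.5% (8.65% to 14.955%) against 5.92% (4.26% to 7.97%) in macrophages. Their CPM interval (69.6 to 116) also lay above that of macrophages (25.6 to 44.9). For inner arachnoid cells of R1 and pial cells of both libraries the CPM intervals overlapped those of macrophages, although each level was above the upper macrophage limit.

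**Figure D2:**
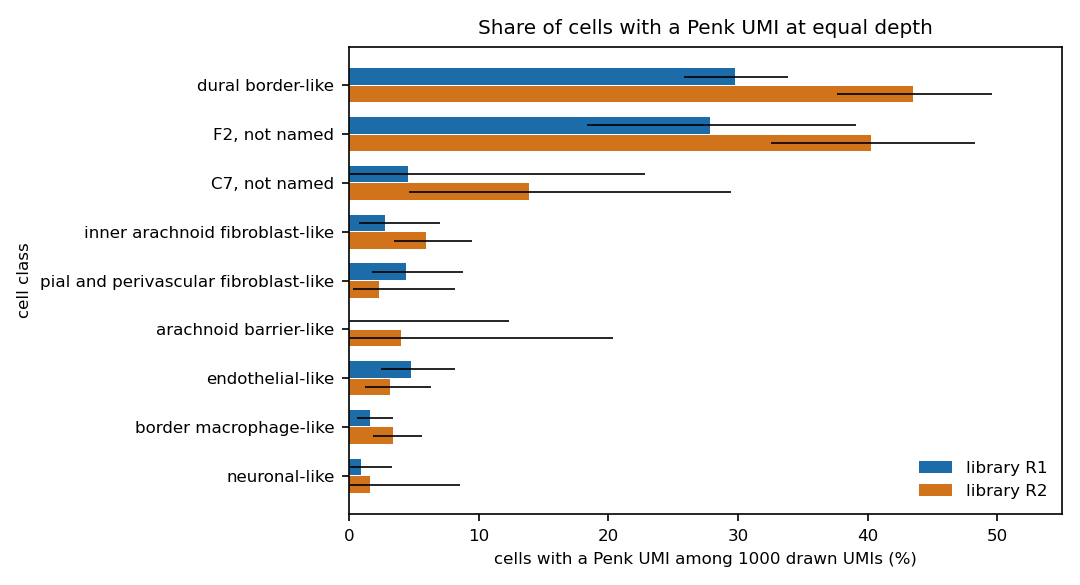
Share of cells (%) with at least 1 Penk UMI among 1000 UMIs drawn per cell, by class and library, with exact 95% binomial intervals. Dural border-like cells and F2 reach 27.8% to 43.5%, and the named classes shown beside them stay at or below 5.95%.

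Penk was spread unevenly among dural border-like cells. Among 1000 drawn UMIs, 366 of 521 cells of R1 had 0 Penk UMIs, 93 had 1, 35 had 2, 15 had 3 and 12 had 4 or more, with a highest count of 10. In R2, 157 of 278 had 0, 58 had 1, 31 had 2, 18 had 3 and 14 had 4 or more, up to 11. The variance was 2.08 and 2.43 times the mean (a Poisson count would give equal values), and the highest 10% of cells held 58.4% and 47.6% of these UMIs. In the full counts, single cells reached 26 and 17 Penk UMIs.

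A part of this unevenness followed clusters. The clustering left Penk out of its genes. Its first round had split the later dural border-like class mainly into clusters C0 and C17. Dural border-like cells of C0 had 687 CPM in R1 (637 to 739, 430 cells) and 1199 CPM in R2 (1104.5 to 1299, 204 cells). Those of C17 had 76.7 CPM (49.6 to 113, 25 UMIs in 114 cells) and 88.9 CPM (47.3 to 152, 13 UMIs in 51 cells), which put C0 at 8.95 and 13.5 times C17. The C17 level was thus close to that of inner arachnoid cells although the clusters had like depth (medians 2265.5 and 2199.5 UMIs in C0, 2612 and 2376 in C17) and like Malat1 (98.0% or more of the cells at 1% or higher).

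C17 shared the dural border marker Slc47a1, a transporter of organic cations, at 1374 and 1381 CPM against 2377 and 2568 CPM in C0. It also had more of the arachnoid barrier markers Cdh1, which encodes E-cadherin (558 and 431 CPM against 156 and 153), and Dpp4 (95.1 and 150 CPM against 10.4 and 20.1). Its leading genes included Prg4, the joint and serosal lubricant lubricin (2451 and 3008 CPM against 387 and 265), and Msln, which encodes mesothelin, a surface protein of mesothelial cells (699 and 608 CPM against 20.9 and 26.1). C17 was left without a name of its own, since the best list for it was that of the arachnoid barrier while its leading genes held the dural border marker Slc47a1.

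**Figure D3:**
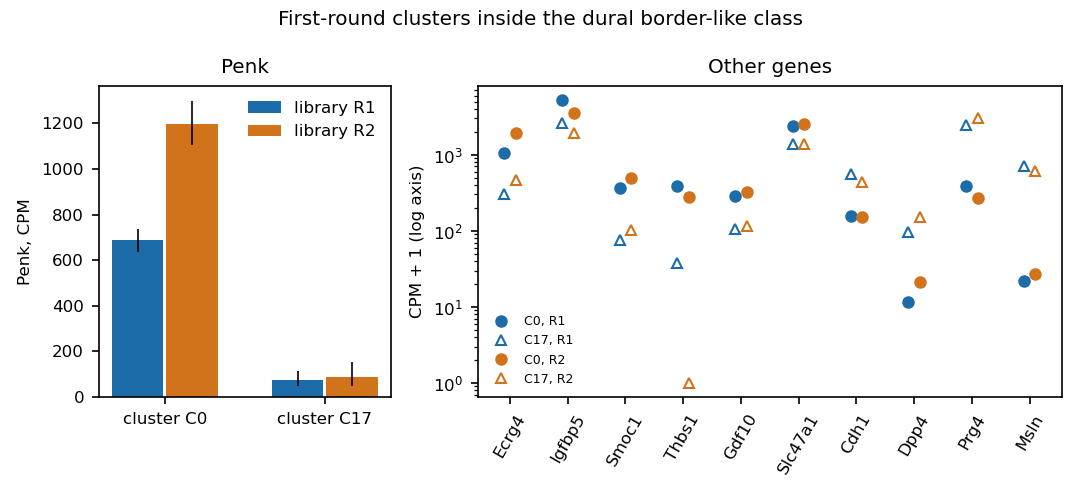
Left, Penk CPM in dural border-like cells of first-round clusters C0 and C17, by library, with exact 95% Poisson intervals. Right, other genes on a log axis as CPM + 1: Penk, Ecrg4, Smoc1 and Thbs1 are higher in C0 in both libraries, and Cdh1, Dpp4, Prg4 and Msln are higher in C17.

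The second round cut the class differently, into F0 and F3, and there the libraries did not rank alike. F0 had 615 CPM in R1 and 710 CPM in R2, and F3 had 391 and 1123 CPM. Without C17, the remaining F3 cells of C0 had 491 and 1429 CPM and the F0 cells 786 and 963 CPM. No order of F0 and F3 can be read from these values.

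Barcodes removed for more than 10% mitochondrial UMIs held much of the Penk. They carried 748 UMIs in R1 and 961 in R2, which was 40.7% and 42.7% of all Penk UMIs, at 165 and 288 CPM. The kept cells stood at 137 and 195 CPM. Within the kept dural border-like cells, those with at most 5% mitochondrial UMIs had 573 and 956 CPM and those above 5% had 511 and 822 CPM.

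Genes were next ranked by how their detection followed Penk over single fibroblast-like cells, 943 of R1 and 833 of R2 after drawing 1000 UMIs, for 3135 genes with a UMI in at least 5% of the cells of each library. The Pearson correlation of log counts is a description over cells that share library and class. The median over genes was 0.009 in R1 and 0.013 in R2. The 10 most positive genes ran from 0.229 to 0.317 in R1 and from 0.28 to 0.448 in R2. These were Igfbp5, a binding protein of insulin-like growth factors (0.317 and 0.448), Ccn3, a matricellular protein (0.31 and 0.374), Ecrg4, a secreted peptide precursor (0.303 and 0.432), Fxyd5, Mgp, Slc4a10, Slc38a2, Emb, Tspan11 and Slc47a1. Of the 10, 4 were genes of the dural border marker list (Ccn3, Fxyd5, Mgp and Slc47a1), so this list in good part describes the class.

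The most negative genes were higher in the inner layers. Among them were Apod and Apoe, which encode apolipoproteins, Ptgds, the prostaglandin D synthase, and the amino acid transporter Slc6a20a, from -0.249 to -0.215 in R1 and from -0.315 to -0.206 in R2. Slc6a20a was at 19.5 and 33 CPM in dural border-like cells and at 1499.8 and 763 CPM in inner arachnoid fibroblast-like cells. Within the dural border-like class, the correlation of Apoe with Penk was -0.053 and -0.044.

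Over the 8 second-round fibroblast-like clusters in 2 libraries (16 points, log2(CPM + 10)), the 5 genes most like Penk among 6209 were Alpl, the tissue-nonspecific alkaline phosphatase (0.984), Emb, which encodes embigin (0.979), Wwp1, a ubiquitin ligase (0.975), Atp1b1, a sodium pump subunit (0.971), and Ccn3 (0.953). Alpl ranged from 15.7 CPM in F6 of R1 to 636 CPM in F3 of R2. As with Penk, Alpl in F3 was lower than in F0 in R1 (243 against 389 CPM) and higher in R2 (636 against 433 CPM). The points share libraries and the class division, and the 16 are not independent.

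**Figure D4:**
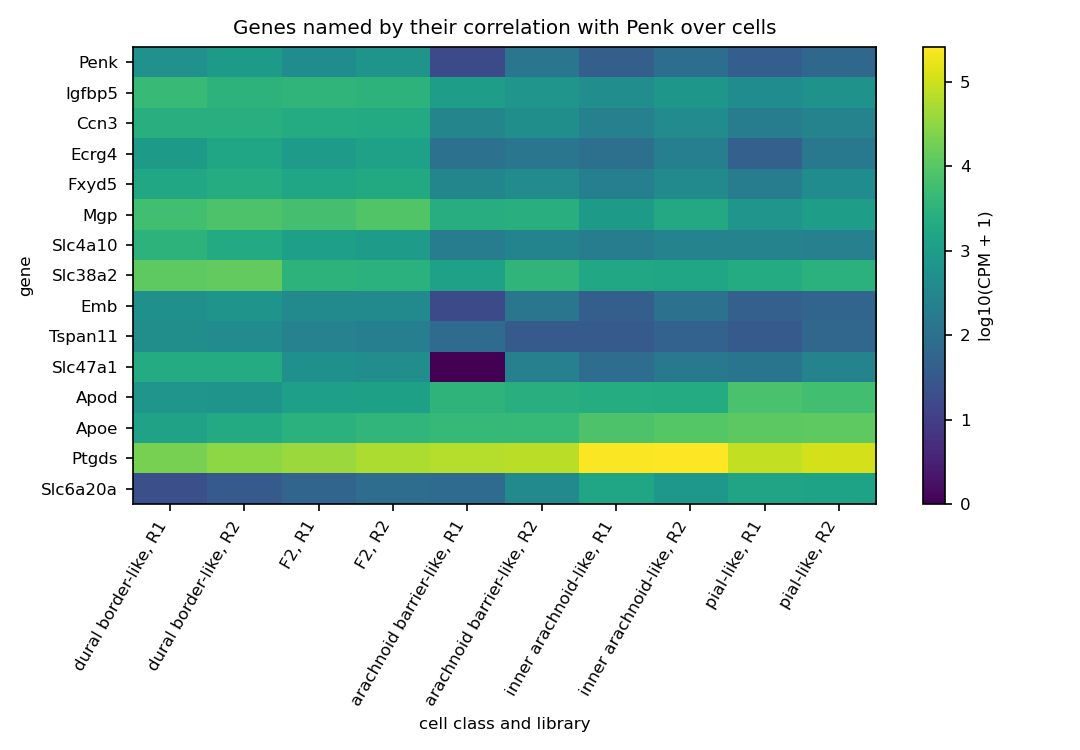
Levels, as log10(CPM + 1), of Penk, the 10 genes with the highest correlation with Penk over cells and 4 of those with the lowest, in fibroblast-like classes of each library; "pial-like" stands for pial and perivascular fibroblast-like. In each library Penk and the first 10 have their highest level in dural border-like cells or F2, and Slc6a20a goes from 19.5 and 33 CPM in dural border-like cells to 1499.8 and 763 CPM in inner arachnoid cells.

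Inside the dural border-like class alone (521 and 278 cells), Ecrg4 (0.255 and 0.358) and Igfbp5 (0.206 and 0.345) of the same 10 genes led, followed by Thbs1, which encodes thrombospondin 1 (0.186 and 0.341), Smoc1, a calcium-binding matrix protein (0.174 and 0.244), and Npr3, the natriuretic peptide clearance receptor (0.174 and 0.168). Among the most negative were Prg4 (-0.157 and -0.25), Msln (-0.146 and -0.202), Spp1 and Stra6. In the C0 cells of the class alone, Ecrg4 still had 0.229 and 0.277 and Igfbp5 0.18 and 0.332. In the same cells Slc47a1 had -0.05 and 0.101, and Slc4a10 had 0.004 and 0.065.

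Penk-positive cells (at least 1 Penk UMI in a separate draw of 1000) were then set against Penk-negative cells within dural border-like cells and within F2, in sums per library (8 sums, 3 residual degrees of freedom, edgeR's quasi-likelihood test). The negative group also holds cells whose Penk UMIs were not drawn. Undrawn, 42.7% and 57.6% of dural border-like cells had a Penk UMI, against 29.8% and 43.5% in the earlier draw. Of 3236 genes, 12 were called higher (0.371%) and 10 lower (0.309%) at an adjusted p of 0.05. Among those higher in positive cells, Thbs1 differed by 1.22 ± 0.22 on the log2 scale (SE, adjusted p 4.51e-05), with 323 against 196 CPM in R1 and 287 against 92.4 CPM in R2. Ecrg4 differed by 0.86 ± 0.15 (adjusted p 2.51e-05) and Smoc1 by 0.97 ± 0.20 (adjusted p 0.00044). Cpz, a metallocarboxypeptidase of the matrix, differed by 1.64 ± 0.40 (adjusted p 0.0121). Gdf10, Alpl, Emb, Htra1, Prnp and Col12a1 were also called higher, by 0.68 to 0.92.

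Among the genes lower in positive cells were Prg4 (-1.41 ± 0.18, adjusted p 4.44e-12) and Msln (-2.24 ± 0.35, adjusted p 1.99e-07), with Msln at 38.9 against 159 CPM in R1 and 74.8 against 185 CPM in R2. Cdo1 (-1.63 ± 0.40), Csk (-2.05 ± 0.56, adjusted p 0.0399) and Itgb4 were also called lower. Most of the Csk difference came from R2, with 20.7 against 138 CPM there and 51.9 against 59.7 CPM in R1. C17 made up 28.4% and 29% of the dural border-like Penk-negative cells and 5.16% and 3.25% of the positive ones. With C0 and C10 cells alone, which leaves C17 out, 0 genes were called higher and 1 lower (128 at an unadjusted p under 0.05), and Thbs1 stood at 0.75 (adjusted p 0.232). DESeq2 called 0 higher and 1 lower on the same sums as in the first fit (51 at an unadjusted p under 0.05), and without R2 0 were called higher and 3 lower (73 at an unadjusted p under 0.05). Ecrg4 stood at 0.56 (adjusted p 0.112) with C0 and C10 cells alone.

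The pathway around the peptide was read from 50 genes in 6 lists. For this, sums per library were compared in edgeR between dural border-like, inner arachnoid and pial and perivascular fibroblast-like cells, each against the mean of the other layers (6 sums, 2 residual degrees of freedom, 8941 genes). The classes were cut from the same cells, so these adjusted p-values are not independent of the clustering, although the pathway genes were left out of it. They rest on a spread between the libraries estimated over all genes together, not on that of each gene alone. In dural border-like cells 7 of the 28 pathway genes tested were called higher (25%, against 13.9% of all genes) and 4 lower (14.3%, against 14.5%). In inner arachnoid cells 5 were higher (17.9%, against 17.8%) and 5 lower (17.9%, against 10.9%), and in pial cells 3 were higher (10.7%, against 10.2%) and 4 lower (14.3%, against 9.07%). Each share rests on 28 genes, and whether any of them differs from that of all genes was not tested. Of the 7 higher calls in dural border-like cells, only those of Pcsk5 and Cpz passed both with DESeq2 and with F2 and arachnoid barrier-like cells added. Between Penk-positive and Penk-negative cells, 14 pathway genes were tested. There 1 of them, Cpz, was called higher (7.14%, against 0.371% of all genes) and 0 lower (0.309% of all genes). Pcsk5 (-0.12 ± 0.25) and Cpe (0.25 ± 0.17) were not called there, nor was Anpep.

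The other opioid precursors were close to absent from dural border-like cells. Pdyn, for prodynorphin, had 2 UMIs in all kept cells of R1 and 0 in R2, and Pnoc, for pronociceptin, had 4 and 5. Pomc, for pro-opiomelanocortin, had 64 and 75 UMIs, of which 47 and 55 were in endothelial-like cells (62.9 and 91.6 CPM), against 2 UMIs in dural border-like cells of each library. None of the 3 could be tested between layers.

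Of the convertases and maturation enzymes, 9 of 13 were tested between layers. In dural border-like cells 3 were higher and 2 lower, with a median log2 difference of 0.25 (all genes, -0.03). Pcsk5, a convertase of the secretory pathway, was at 209 and 190 CPM there, 28.7 and 30.2 CPM in inner arachnoid cells and 69.9 and 44.9 CPM in pial cells, a log2 difference of 1.91 ± 0.21 (adjusted p 3.56e-16). Cpz was at 92.8 and 74.3 CPM against 2.39 and 8.6 CPM in inner arachnoid cells (2.75 ± 0.32, adjusted p 1.21e-14). Cpe, the carboxypeptidase that trims basic residues from neuropeptides, was at 640 and 612 CPM against 361 and 325 CPM in inner arachnoid cells (0.82 ± 0.19, adjusted p 0.00013). In each of these 3 genes the dural border-like values of both libraries lay above those of the other named layers, and Cpe was higher still in F2 (955 and 782 CPM).

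The classical neuropeptide convertases were at or near 0 in these cells. Pcsk1 had 0 UMIs in dural border-like cells of either library, which allows up to 2.09 and 4.13 CPM, and Pcsk2 had 2 and 1 UMIs. Furin, the general convertase, was at 73.3 and 81.2 CPM (0.20 ± 0.23, adjusted p 0.578). Pam, which amidates peptide ends, was lower in dural border-like cells (42.6 and 59.2 CPM against 246 and 236 CPM in pial cells, -1.85 ± 0.21, adjusted p 5.52e-15), and Ctsl, the protease cathepsin L, by -0.63 ± 0.19. Of 7 granule proteins only Scg3 was tested, at -0.64 ± 0.42 in dural border-like cells (adjusted p 0.267) and called higher in inner arachnoid cells (1.61 ± 0.41, adjusted p 0.00114; 0.144 with DESeq2). Across inner arachnoid cells 0 of the 9 maturation genes were higher and 3 lower (Pcsk5, Cpz and Cpd), and in pial cells Pam was higher and Cpe lower. The Cpd call was lost with DESeq2 (adjusted p 0.249), and the inner arachnoid calls of Cpz and Cpd were lost with F2 and arachnoid barrier-like cells added (adjusted p 0.113 and 0.412).

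The classical opioid receptors were not detectable beyond single UMIs. Oprm1, the mu receptor, had 0 UMIs in the kept cells of both libraries. Oprd1, the delta receptor, had 2 and 0, both in neuronal-like cells, Oprk1 1 and 0, and Oprl1, the nociceptin receptor, 4 and 3. Ackr3, an atypical chemokine receptor that also takes up opioid peptides, was at 75.3 and 77.1 CPM in dural border-like cells, 90.9 and 61.8 CPM in inner arachnoid cells and 11.3 and 30 CPM in pial cells. It was called higher in dural border-like (0.71 ± 0.27, adjusted p 0.0314) and inner arachnoid cells (1.42 ± 0.29, adjusted p 1.93e-05) and lower in pial cells (-2.13 ± 0.37, adjusted p 3.97e-07). The first of these calls was lost with DESeq2 (adjusted p 0.451). Ogfr, the opioid growth factor receptor, which binds Met-enkephalin, was at 41.9 and 35.8 CPM in dural border-like cells, with a difference of 0.23 ± 0.30 (adjusted p 0.645).

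Of 10 peptidases that cut enkephalins, 8 were tested. Mme, for neprilysin, was not among them, with 5 and 2 UMIs in all kept cells. In dural border-like cells Anpep, aminopeptidase N, was higher (306 and 231 CPM against 103 and 94.8 CPM in inner arachnoid and 207 and 210 CPM in pial cells, 0.58 ± 0.19, adjusted p 0.009), a call lost with DESeq2 (adjusted p 0.155). Ace, the angiotensin-converting enzyme, which also removes dipeptides from enkephalins, was lower there (50.2 and 56.4 CPM) and highest in inner arachnoid cells (285 and 213 CPM, 2.25 ± 0.20, adjusted p 1.27e-23). Ece2 was low outside pial cells, where it had 45.1 and 41.2 CPM (3.59 ± 0.55, adjusted p 8.03e-09). Dpp4, whose product removes dipeptides from peptide ends, was at 992 and 862 CPM in arachnoid barrier-like cells, for which it had served as a marker, and at 33.5 and 66.1 CPM in dural border-like cells.

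**Figure D5:**
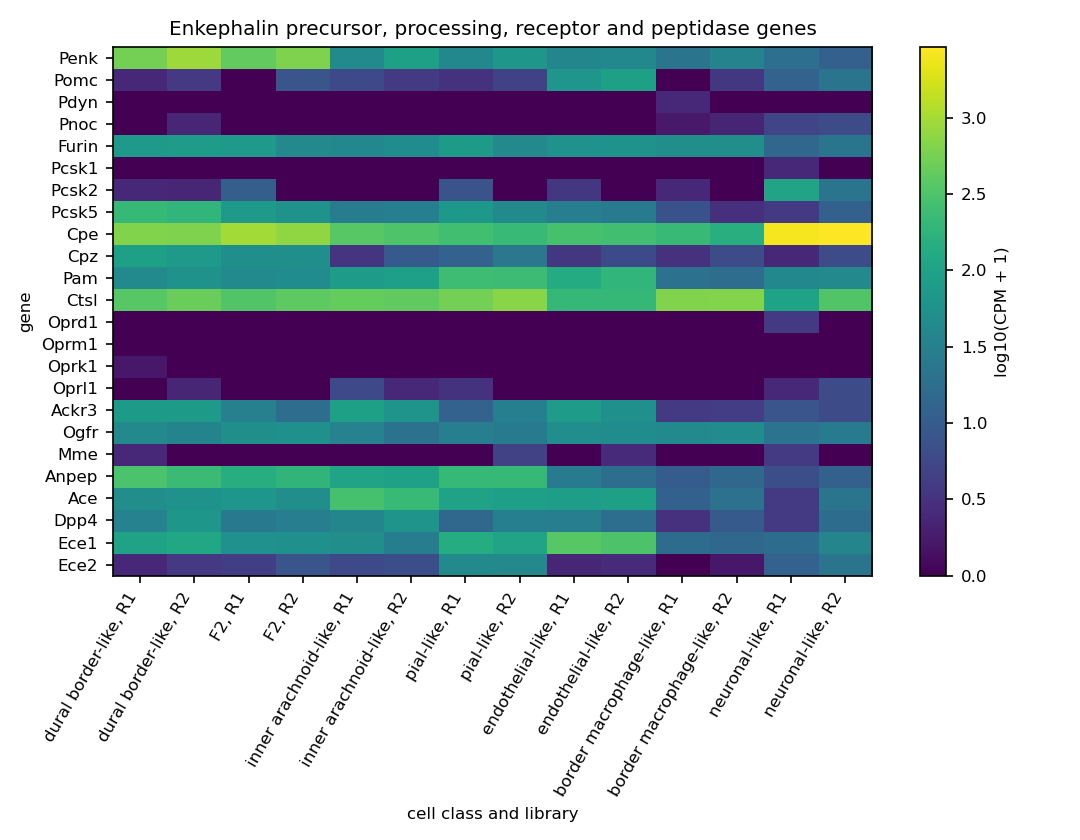
Levels, as log10(CPM + 1), of precursor, processing, receptor and peptidase genes in 7 classes of each library; "pial-like" stands for pial and perivascular fibroblast-like. Pcsk5, Cpz and Anpep are highest in dural border-like cells among the layers named, Pomc reaches 62.9 and 91.6 CPM in endothelial-like cells, and the rows of Oprd1, Oprm1, Oprk1 and Oprl1 are dark throughout.

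Factors of the AP-1 and CREB families, which bind the enhancer known upstream of Penk, were tested for 8 of 11 members, and 2 were called higher in dural border-like cells. Jun was at 147 CPM in R1 and 60.6 CPM in R2 (0.92 ± 0.23, adjusted p 0.000472). Fosl2 was at 80.2 CPM in R1 and 11 CPM in R2, and its call (1.68 ± 0.37, adjusted p 5.07e-05) came from R1, since in R2 alone dural border-like cells were lower (-0.37). Both calls were lost with DESeq2 (adjusted p 0.205 and 0.279). Fos was at 44.6 CPM in R1 (64 UMIs) and 2.75 CPM in R2 (2 UMIs). Whether any of these factors acts on Penk in these cells was not tested.

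With F2 and arachnoid barrier-like cells added as layers, the dural border-like calls of Ackr3, Jun, Cpe, Pam, Ace and Ctsl were lost (adjusted p 0.165, 0.368, 0.0834, 0.331, 0.0994 and 0.922). The higher calls of Pcsk5 and Cpz and the lower call of Ece2 passed both there and with DESeq2.

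Set against 6 other classes (border macrophage, dendritic, endothelial, microglia, mural and neuronal-like; 18 sums, 8 residual degrees of freedom), the 3 fibroblast layers had 14 of 34 pathway genes higher (41.2%, against 30.5% of 11050 genes) and 7 lower (20.6%, against 20.2%). Of the 8 peptidases tested, 7 were higher, with a median log2 difference of 1.43 (all genes, 0.10). Anpep stood at 3.32 ± 0.18 (adjusted p 2.21e-49) and Ace at 2.29 ± 0.20 (adjusted p 1.93e-24). Of the maturation genes, 5 of 11 were higher, Pcsk5 by 4.08 ± 0.34 (adjusted p 1.45e-25) and Cpz by 2.93 ± 0.56 (adjusted p 1.3e-06), and Pcsk1n, an inhibitor of convertases, was called lower (-1.24 ± 0.18, adjusted p 1.71e-10). Pcsk1n was at 7277 and 6142 CPM in neuronal-like cells, whereas dural border-like cells (134 and 60.6 CPM) lay in the range of macrophage-like (121 and 71.2 CPM) and endothelial-like cells (155 and 45 CPM). Cpe did not pass (0.02 ± 0.11, adjusted p 0.984), being at 2561 and 2899 CPM in neuronal-like cells. Of the AP-1 and CREB family, 5 of 11 were lower (Fos, Fosb, Jun, Junb and Jund) and Atf2 was higher. The fits of Atf3, Pcsk2 and Pomc failed, so that these were in effect not tested although the 34 genes include them. Atf3 stood at 2.89 and 2.5 CPM in the fibroblast layers against 110 and 115 CPM in the other classes. Jun stood at -3.36 ± 0.15 (adjusted p 6.9e-62), with 2063 and 2424 CPM in endothelial-like cells against 147 and 60.6 CPM in dural border-like cells.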

How the data were processed

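The authors deposited, per library, raw UMI counts per gene and barcode, and lists of features and barcodes (unit: other, per the file headers); Cell Ranger 4.0.0 and mm10 are named in the file headers and the submitters' processing notes. A minimum of 400 genes and a maximum of 10% mitochondrial UMIs was set for barcodes, Scrublet was run, and cells were clustered in scanpy 1.11.5 (2000 variable genes without Penk and the pathway genes, 30 components, 15 neighbours, Leiden resolution 1.0, then 0.8 among fibroblast-like clusters). Clusters were named from 23 marker lists. Penk was given as summed UMIs per 1000000 (CPM) with exact Poisson intervals, and as shares of cells after drawing 1000 UMIs, with Clopper-Pearson intervals. A count of 0 allows 3 counts.

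Counts summed per library and class (at least 50 cells in each) were tested with edgeR 4.0.16 (quasi-likelihood, TMM, filterByExpr, library as a term, two-sided, Benjamini-Hochberg over all genes tested, threshold 0.05). DESeq2 1.42.0 was an alternative. SE is the size of the log2 difference over the root of F. On simulated counts the test of dural border-like cells over 8354 genes recovered 77% of genes changed by 1 on the log2 scale and 100% of those changed by 2. It also called 7 unchanged genes. The changed genes were drawn only from well-counted ones, all genes had the same simulated dispersion, and classes and libraries did not otherwise differ. These figures therefore do not hold for genes of low counts. The p-values of the fits between classes rest on the spread between these 2 libraries, with dispersion estimated over all genes together. They do not measure the spread of each gene alone, and Fosl2 was called although its libraries had opposite signs. The p-values of the Penk-positive fit also take in how dural border-like cells and F2 differ, with both classes of a library counted as separate pairs.

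The gene, the lists and the tests were chosen with earlier results of these data known. Named genes were Penk, the 10 highest and 5 lowest correlations by the smaller of both libraries, the 5 most like Penk over clusters (at least 50 CPM in a cluster), the 10 higher and 5 lower in Penk-positive cells (past the threshold, same sign in both libraries, a higher side of 50 CPM or more), up to 3 pathway genes per list and comparison, and every precursor and receptor; some genes that this rule names are left out here. Genes of the C0 and C17 comparison, and pathway genes given beyond this rule, were chosen after their values were seen.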

Additional observations from a re-analysis of the deposited data

Results flagged for a closer look

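Barcodes over the mitochondrial limit, which enter no comparison between classes, held Penk at 165 CPM in R1 and 288 CPM in R2, above the level of all kept cells outside the fibroblasts (19.8 and 32 CPM). The cell types of these barcodes were not analysed here.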

How the results depend on the processing

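The mean dural border-like Penk level ran from 691 to 958 CPM over the alternatives that kept both libraries (721 CPM in the report), cluster C17 left out included, and was 541 and 901 CPM in R1 and R2 alone. It was the highest of the named layers in each of these. The low layers moved: with at most 5% mitochondrial UMIs the mean was 25.6 CPM in inner arachnoid and 21.7 CPM in pial cells, and with at least 1000 genes per cell it was 19 CPM in pial cells. At resolutions 0.6 and 0.5 no cluster was named pial, so no value was had. Shares of cells followed the depth drawn: 22.5% of dural border-like cells at 500 UMIs, 56% at 2000 and 50.1% undrawn. At 2000 UMIs and undrawn, 8.34% and 9.13% of inner arachnoid cells and 7.03% and 7.35% of pial cells had a UMI, and at 2000 UMIs 5.56% of barrier-like cells.

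DESeq2 called fewer genes between layers: 512 higher and 579 lower in dural border-like cells (edgeR 1244 and 1299), 610 and 279 in inner arachnoid (1592 and 974), and 435 and 269 in pial cells (914 and 811). With F2 and barrier-like cells added, chosen after seeing the data, 751 were lower in dural border-like cells, and 1002 higher and 420 lower in inner arachnoid cells. Dpp4 in inner arachnoid cells then reversed (-0.06 against 1.05), and without R1 Fosl2 in dural border-like cells reversed (-0.37, against 2.83 without R2). Leaving out either library left no residual degrees of freedom in these fits, hence no test.

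For Penk-positive cells, counts of genes higher were 0 (DESeq2), 5 (no filter), 6 (at least 2 Penk UMIs), 4 (only barcodes with 1% Malat1) and 0 (only C0 and C10, added after seeing the data), against 12. Counts lower were 1 (DESeq2), 16 (RLE), 4 (500 UMIs), 4 (at least 2 Penk UMIs), 3 (1% Malat1) and 1 (C0 and C10), against 10. Leaving out a library gave 0 to 4 higher and 1 to 3 lower. Of the 5 genes most negatively correlated with Penk, 3 were shared when cells were not thinned. The fits had library as a term, and that of Penk-positive cells had each class in each library as a block; they were not run without these terms.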
